A study of Mus musculus with 2 samples.

Results

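Tcf1 binding was examined at the loci of 9 genes of transforming growth factor-beta (TGF-beta) signalling in naïve CD8+ T cells, namely Tgfb1, Tgfbr1, Tgfbr2, Smad2, Smad3, Smad4, Smad7, Ski and Skil. The genes were listed by name, with earlier results of these data known, and a peak was assigned to a gene when its summit lay in the gene body or within 50 kb of either end in the GENCODE vM1 annotation of the mm9 mouse genome. By this rule 77 of the 22286 deposited peaks belonged to the 9 loci, and each of them belonged to 1 gene. ChIP-seq with an antiserum against Tcf1, the HMG-box transcription factor encoded by Tcf7, had been performed on splenic cells in 1 WT library and 1 Tcf1-deficient library, and the authors called peaks in the WT library over the Tcf1-deficient one. The sorted cells were GFP+ TCRbeta+ CD62Lhi CD44lo-med CD8+ in both groups, and the labels name no treatment. The control is Tcf1-deficient by its title and Tcf1-/-Lef1-/- by its genotype label, the series design describes floxed Tcf1 and Lef1 alleles deleted by hCD2-Cre with a Cre-activated GFP reporter, and the study's methods name a Cd4-Cre deletion of Tcf7 alone, so that the presence of Lef1 in the control cells could not be settled. Both Cre drivers act in T cells in general and not in CD8+ cells alone. The labels give neither age nor sex, and the study used adult males and females on a C57BL/6 background without stating which entered these libraries. A peak list holds no expression values, so the labelled cell type could not be checked against its markers.

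TGF-beta is a secreted cytokine that restrains T cell activation and maintains naïve and tissue-resident CD8+ T cells. The ligand binds the type II receptor Tgfbr2, which recruits and phosphorylates the type I receptor Tgfbr1, and the active type I kinase phosphorylates Smad2 and Smad3. These receptor-activated Smads join Smad4 and enter the nucleus, whereas Smad7 blocks the receptors and Ski and Skil (also called SnoN) hold Smad complexes in a repressed state.

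The bases under the summits are given first for the peaks to which the results return. In the following windows, read 5′ to 3′ on the plus strand of the mm9 build, the capitals of the first 4 mark the 7-letter Tcf/Lef core ATCAAAG, part of the sequence that the HMG box of Tcf and Lef factors recognises, and they are shown because few of the TGF-beta peaks held it. Windows span 201 bases centred on the summit, except that the Tgfb1 window is shown for the core and 10 bases on each side. That summit lies 5 bp from a start site of the neighbouring gene Ccdc97. The Smad3 window has no capitals and is shown because it is the strongest peak of the 9 loci and held none of the 3 cores searched. The capitals of the last window mark the Runx core TGTGGTT, 1 bp from the summit of the strongest Tgfbr2 peak, which was chosen after its values were seen.
Tgfbr2, 6.57 kb upstream, chr9:116090852-116091052: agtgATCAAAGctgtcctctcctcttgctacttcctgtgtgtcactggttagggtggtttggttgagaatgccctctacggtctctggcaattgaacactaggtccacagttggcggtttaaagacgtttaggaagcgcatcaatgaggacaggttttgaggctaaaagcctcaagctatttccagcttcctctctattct
Ski, 95.7 kb from the 5′ end, chr4:154500921-154501121: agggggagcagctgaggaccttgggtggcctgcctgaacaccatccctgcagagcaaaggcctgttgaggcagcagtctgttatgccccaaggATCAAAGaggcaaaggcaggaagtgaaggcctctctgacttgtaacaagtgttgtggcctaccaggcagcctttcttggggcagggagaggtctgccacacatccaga
Ski, 26.8 kb upstream, chr4:154623430-154623630: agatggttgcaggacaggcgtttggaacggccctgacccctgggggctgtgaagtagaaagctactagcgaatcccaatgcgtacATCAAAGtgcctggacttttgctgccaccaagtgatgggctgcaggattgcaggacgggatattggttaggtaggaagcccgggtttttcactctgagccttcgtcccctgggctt
Tgfb1, 32.0 kb from the 5′ end, chr7:26504088-26504114: gcacccaagcATCAAAGttccgggtca
Smad3, 17.3 kb from the 5′ end, chr9:63588424-63588624: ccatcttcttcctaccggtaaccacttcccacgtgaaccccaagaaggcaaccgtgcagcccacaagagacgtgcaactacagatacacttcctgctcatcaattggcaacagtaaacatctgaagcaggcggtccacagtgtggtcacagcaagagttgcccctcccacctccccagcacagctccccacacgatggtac
Tgfbr2, 39.2 kb upstream, chr9:116123530-116123730: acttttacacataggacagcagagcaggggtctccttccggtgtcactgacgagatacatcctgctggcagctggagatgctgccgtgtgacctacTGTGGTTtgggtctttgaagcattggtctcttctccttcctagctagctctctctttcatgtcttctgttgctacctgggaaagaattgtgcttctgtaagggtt

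High-confidence Tcf1 peaks, past the study's limits on fold enrichment (4 or more), p (under 1e-05) and q (under 0.05), numbered 75 of the 77 (97.4%), beside 85.4% of all deposited peaks. Pileup counts the WT fragments that cover a summit, and fold enrichment is the pileup plus 1 over the local control level plus 1, where the control level is the Tcf1-deficient signal brought to WT depth and never set under a floor of 5.42 fragments. The WT library kept 36938606 fragments and the control 27625250. At 65 of the 75 summits (86.7%) the control was at its floor, and at the other 10 it reached at most 8.69 fragments, against 86.3% of all high-confidence peaks at the floor. Intervals on a pileup are exact Poisson 95% intervals and cover counting error only. With 1 library in each group there was no replicate check and no test between the groups was possible.

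All 9 genes held a high-confidence peak, beside 66.5% of the 22350 protein-coding genes in the same kind of window. The count per gene ran from 2 at Smad2 and Skil, through 3 at Tgfbr1, 5 at Tgfb1 and Smad4 and 10 at Ski, to 15 at Smad3 and Smad7 and 18 at Tgfbr2. The last 4 genes held 58 of the 75 peaks (77.3%), and the other 5 genes held 17. The median protein-coding gene held 1 peak and the 90th percentile was 6. A count of 18 or more, as at Tgfbr2, was found for 0.130% of protein-coding genes, and a count of 15 or more, as at Smad3 and Smad7, for 0.304%. The 2 peaks of Smad2 and Skil were reached or passed by 49.5% of genes. The median gene body was 15.4 kb long, while those of Smad3 and Tgfbr2 measured 111 and 91.0 kb, and long genes have wide windows. Per 100 kb of window, Smad7 held 11.7 peaks, Tgfbr2 9.43, Smad3 7.10, Ski 5.93, Tgfb1 4.23, Smad4 3.03, Tgfbr1 1.86, Skil 1.57 and Smad2 1.22, over a genome-wide median of 0.973. Smad7 thus led the order once window length was counted, at a density reached by 0.215% of genes. The densities of Tgfbr2 and Smad3 were reached by 0.729 and 2.53%, larger shares than those by count.

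**Figure D1:**
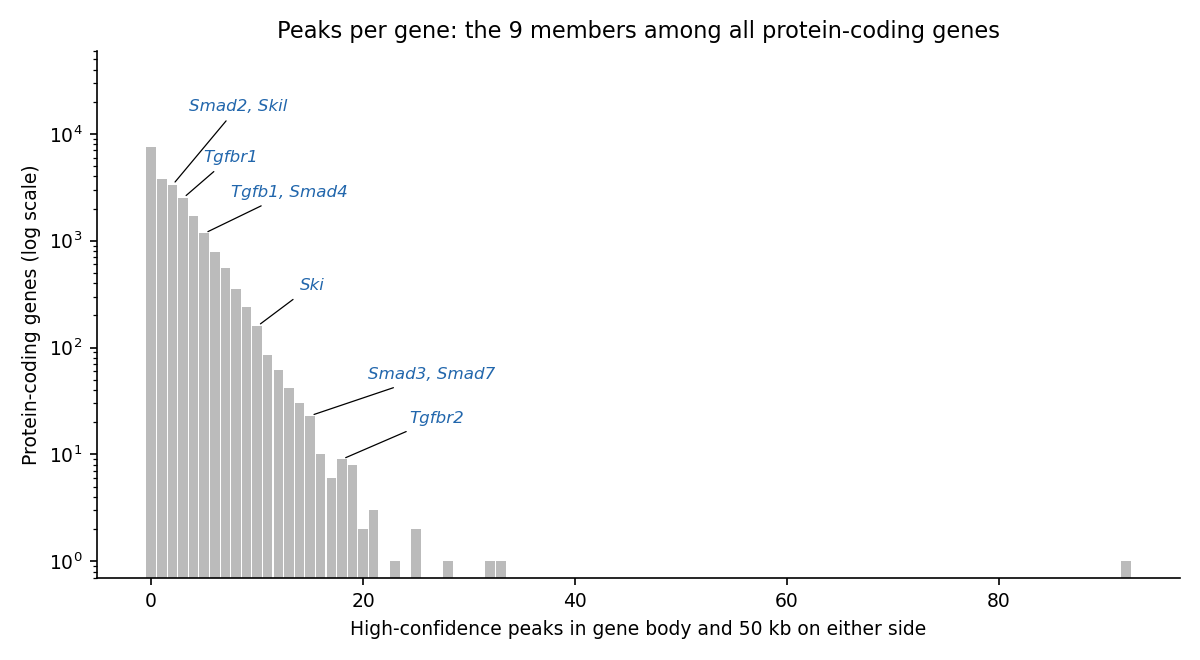
Number of high-confidence Tcf1 peaks in the gene body and 50 kb on either side (x axis) against the number of protein-coding genes with that count (y axis, log scale). Gene names point to the bars that hold the 9 TGF-beta genes, from 2 peaks at Smad2 and Skil to 18 at Tgfbr2.

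At Tgfb1, the ligand gene (ENSMUSG00000002603.9, chr7:26472021-26490096, plus strand), 5 peaks were called. The strongest lay 49 bp upstream of the 5′ end (chr7:26471583-26472402), with 140 WT fragments (95% interval 118 to 165), a control at the floor and a fold enrichment of 22.0. It was the only 5′ end peak of the 9 genes to reach a fold enrichment of 20. A weaker peak of 40 fragments and 6.39-fold enrichment stood 2.82 kb into intron 1, within 892 bp of a further annotated start site of Tgfb1. The remaining 3 peaks lay at the start sites of neighbours in a gene-dense window, 35 fragments at Exosc5, 49 at B9d2 and 72 at Ccdc97. The Ccdc97 summit, 5 bp from that gene's start site, was the 1 Tgfb1 window with the Tcf/Lef core, 42 bp from the summit, together with an ETS core 3 bp from it.

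The receptor genes differed from each other in the number of peaks. Tgfbr1, the type I receptor kinase (ENSMUSG00000007613.9, chr4:47366094-47427803, plus strand), held 3 peaks and none inside its 61.7 kb gene body. Its strongest peak, 17 bp upstream of the 5′ end (chr4:47365836-47366331), reached 59 fragments (44.9 to 76.1) and a fold enrichment of 9.35. The others, 33.3 kb upstream and 84.9 kb from the 5′ end, each had 42 fragments and 6.70-fold enrichment, so that the 3 intervals overlapped. The nearest protein-coding start sites of these others were those of Col15a1 and Alg2. None of the 3 windows held a Tcf/Lef, ETS or Runx core.

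Tgfbr2, the type II receptor that binds the ligand (ENSMUSG00000032440.5, chr9:115993415-116084383, minus strand), held 18 high-confidence peaks of 19, of which 8 lay in the gene body, 8 upstream and 2 downstream. For 17 of the 18 the nearest protein-coding start site was that of Tgfbr2 itself. The strongest by fold enrichment was 39.2 kb upstream (chr9:116123381-116123982), with 130 fragments (109 to 154) over a control at the floor and 20.4-fold enrichment. A peak in intron 4, 60.7 kb from the 5′ end, had nearly the same values, 129 fragments and 20.3-fold. The highest pileup of the locus, 143 fragments, lay 13.8 kb upstream, where the control stood at 7.35 fragments and the fold enrichment was 17.2. These 3 summits overlapped in their intervals, and no single Tgfbr2 peak stood above the rest. The peak 6.57 kb upstream, with the Tcf/Lef core 93 bp from its summit, had 101 fragments and 15.9-fold enrichment. At the 5′ end itself stood a pair of weak peaks, 115 and 738 bp upstream, with 35 and 29 fragments. The 19th peak, 14.7 kb upstream, fell just outside the fold minimum with 24 fragments and 3.90-fold, whereas the weakest Tgfbr2 peaks just inside it had 26 and 27 fragments and 4.21- and 4.36-fold.

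Smad2 and Smad3, the receptor-activated Smads, lay far apart in both count and strength. Smad2 (ENSMUSG00000024563.9, chr18:76401234-76465385, plus strand) held 2 peaks, 1 of 31 fragments (21.1 to 44.0) and 4.99-fold enrichment in the 5′ untranslated exon 1, 282 bp from the 5′ end (chr18:76400909-76401609), and 1 of 26 fragments and 4.21-fold 25.6 kb upstream. Both were close to the fold minimum, and 61.5% of all protein-coding genes had a strongest peak at least as high as that of Smad2.

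Smad3 (ENSMUSG00000032402.6, chr9:63494574-63605801, minus strand) held 15 high-confidence peaks of 16, of which 11 lay in intron 1. The strongest peak of all 9 loci was among them, 17.3 kb from the 5′ end (chr9:63588064-63588942), with 381 fragments (344 to 421), a control at the floor and a fold enrichment of 59.5, which ranked 53 of the 19042 high-confidence peaks. A second group lay close together farther into the same intron, with 151 fragments at 36.0 kb, 331 at 36.9 kb and 120 at 38.1 kb, or fold enrichments of 23.7, 34.3 and 18.9. The control rose to 8.69 fragments under the middle one of these. The weakest intron 1 peak, 31.3 kb in, had 26 fragments and 4.21-fold enrichment, so that peaks of a single intron spanned nearly the whole range seen at the 9 genes. Outside the gene, 86 fragments lay 19.0 kb upstream and 52 at the Aagab start site beyond the 3′ end. The 16th peak, in the body of Aagab, had 23 fragments and 3.74-fold enrichment and fell under the minimum. No Smad3 window held the Tcf/Lef core, while 1 held the ETS core and 2 the Runx core.

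Smad4, the shared partner of the receptor-activated Smads (ENSMUSG00000024515.7, chr18:73798663-73863434, minus strand), held 5 peaks at the opposite ends of its gene body. Near the 3′ end, in intron 10, 60.5 kb from the 5′ end (chr18:73802602-73803267), stood the strongest, with 138 fragments (116 to 163), a control of 7.35 fragments and a fold enrichment of 16.6. The summit lay 715 bp from the start site of a further annotated Smad4 transcript and therefore counted as a promoter peak of the gene. Beside it in intron 10 lay peaks of 37 and 75 fragments, 58.8 and 55.2 kb from the 5′ end, and the 5′ end carried 43 fragments 105 bp upstream and 40 fragments 1.03 kb into intron 1. Runx cores lay 25 bp from the strongest summit and 9 bp from that of the 75-fragment peak.

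Smad7, the inhibitory Smad (ENSMUSG00000025880.5, chr18:75527183-75555589, plus strand), held 15 peaks, 5 in its 28.4 kb body, 6 upstream and 4 downstream. All 15 had a Smad7 start site as the nearest protein-coding start. The strongest, in intron 2 6.68 kb from the 5′ end and 708 bp from a further annotated Smad7 start site (chr18:75533435-75534161), reached 283 fragments (251 to 318) over a control at the floor and 44.2-fold enrichment, rank 174 of 19042. It was the only one of the 75 windows with both a Tcf/Lef and a Runx core, it held the Tcf/Lef core at 2 places, the nearer 7 bp and the Runx core 20 bp from the summit, and it was the highest of the 5 peaks with the Tcf/Lef core. Other strong summits stood far out on both sides, with 214 fragments (33.5-fold) 45.1 kb upstream and 146 fragments (22.9-fold) 52.1 kb from the 5′ end, and in intron 3 with 162 fragments (25.4-fold). Smad7 thereby had 4 peaks of 20-fold or more, against 3 at Smad3, 2 at Tgfbr2 and 1 each at Tgfb1 and Ski. The other 11 Smad7 peaks had fold enrichments from 4.05 to 9.66.

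The corepressor genes Ski and Skil again differed. Ski (ENSMUSG00000029050.8, chr4:154528184-154596701, minus strand) held 10 peaks, and the 7 in its body were all in intron 1. The strongest, 21.8 kb from the 5′ end (chr4:154574488-154575884), had 214 fragments (186 to 245), a control of 8.69 and 22.2-fold enrichment. The next had 92 fragments (14.5-fold) beyond the 3′ end in the body of Morn1, 83 fragments (12.0-fold) at 60.0 kb in intron 1, and 74 fragments (11.7-fold) 26.8 kb upstream, 381 bp from the start site of 2610002J02Rik. The Morn1 and 2610002J02Rik summits were those with the Tcf/Lef core, 4 and 12 bp from the summit, and whether they belong to Ski or to these neighbours cannot be told from position. Skil (ENSMUSG00000027660.9, chr3:30993980-31021499, plus strand) had no peak in its body. A peak 1508 bp wide covered its 5′ end (chr3:30992599-30994106, summit 324 bp upstream) with 84 fragments (67.0 to 104) and 13.2-fold enrichment, and 42 fragments (6.70-fold) lay 33.6 kb upstream. The nearest protein-coding start site of the latter peak was that of Prkci.

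**Figure D2:**
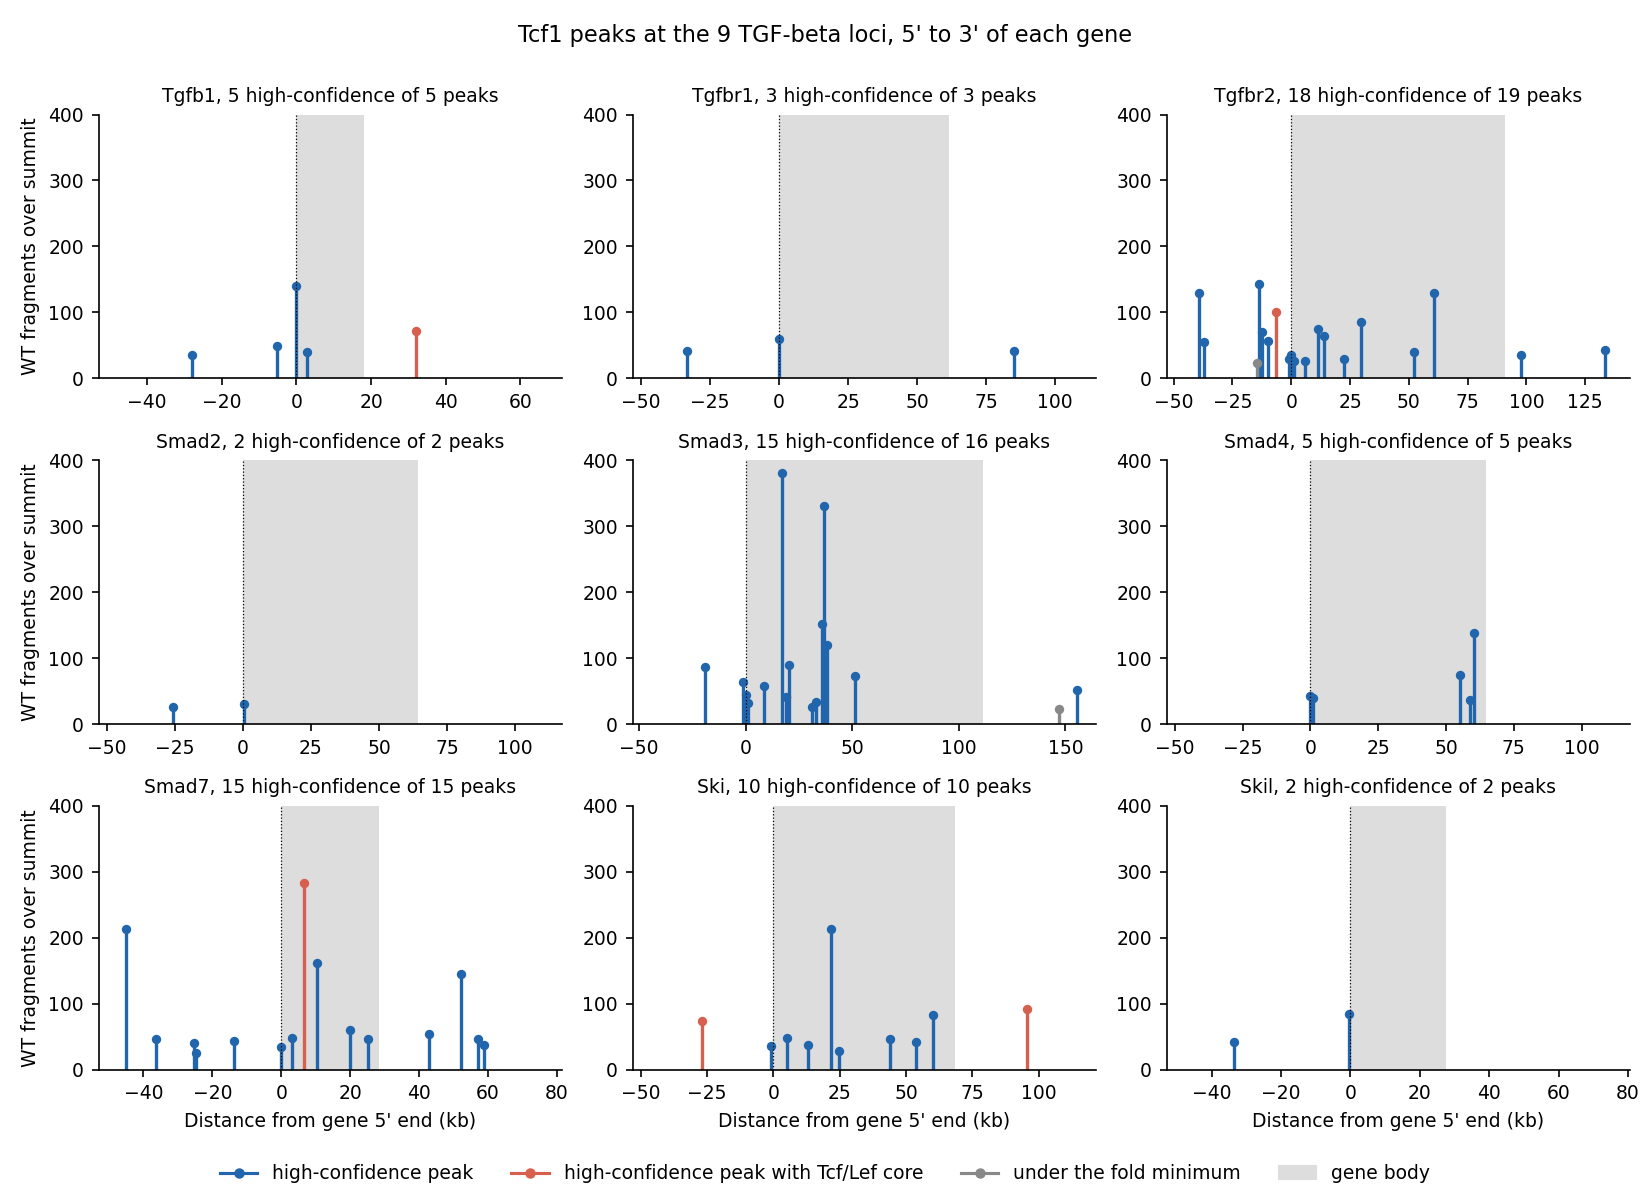
Each stem is a Tcf1 peak, placed by the distance of its summit from the gene's 5′ end in kb (x axis, 5′ to 3′ of the gene) and as high as its WT fragments over the summit (y axis, same scale in all panels). Grey shading is the gene body, red stems held the Tcf/Lef core, and grey stems fell under the fold minimum. The highest stem stands at 381 fragments in the Smad3 panel, and the Smad2 panel has 2 stems of 26 and 31.

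By their strongest peak the genes ran in the order Smad3, Smad7, Ski, Tgfb1, Tgfbr2, Smad4, Skil, Tgfbr1 and Smad2, from 59.5- to 4.99-fold. In the Poisson 95% intervals of the fold enrichment, with the control level taken as fixed, each neighbouring pair from Ski down to Tgfbr1 overlapped, for example Ski (19.3 to 25.3) with Tgfb1 (18.5 to 25.9). The intervals of Smad3 (53.7 to 65.8) and Smad7 (39.3 to 49.7) stood apart from their neighbours, and that of Smad2 lay below that of Tgfbr1. The median of the 9 strongest fold enrichments was 20.4, beside 10.1 over the protein-coding genes with a peak. A maximum rises with the number of peaks it is taken over, and the 9 genes held a median of 5 peaks against 1 for all protein-coding genes. Over single peaks the difference was smaller, with a median fold enrichment of 7.63 at the 9 loci (95% interval of the median 6.70 to 10.1) and 6.86 over all high-confidence peaks, a value inside that interval. A fold enrichment of 20 or more was reached by 11 of the 75 peaks (14.7%) and by 7.98% of all high-confidence peaks, and these 11 lay at 5 genes. At the low end, 14 of the 75 had a fold interval that included the minimum of 4.

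**Figure D3:**
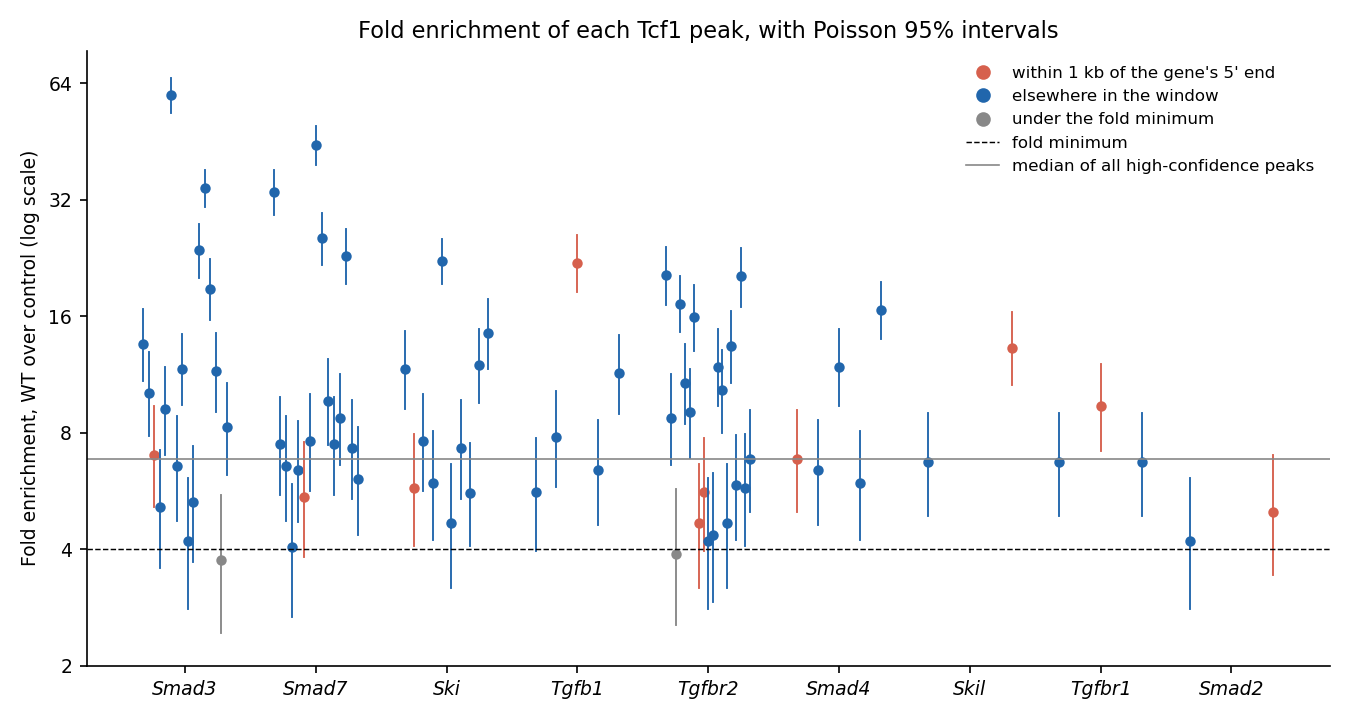
Fold enrichment of WT over control (y axis, log scale) for each of the 77 peaks, grouped by gene and placed in genomic order within a gene. Bars are Poisson 95% intervals, red points lie within 1 kb of the gene's 5′ end, grey points fell under the minimum of 4 (dashed line), and the solid line is the median of all high-confidence peaks, 6.86. Smad3 and Smad7 hold the 2 points above 40.

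Each of the 9 genes had a peak in a promoter of its own, within 1 kb of an annotated start site, beside 32.8% of protein-coding genes, and for all 9 such a peak stood within 1 kb of the outermost 5′ end, beside 30.2%. These 5′ end peaks were mostly weak. Except for Tgfb1, Tgfbr1 and Skil, with 140, 59 and 84 fragments, the strongest 5′ end peak of each gene had between 31 and 44 fragments. The summits of these strongest 5′ end peaks lay in DNA of 62.2 to 81.1% GC, and the second Tgfbr2 peak, 738 bp upstream, in DNA of 49.3%. The median fold enrichment over the 9 genes, 6.86, was close to the 6.70 of all protein-coding genes with a 5′ end peak, while the median of the strongest peak elsewhere in the window was 16.6 at the 9 genes and 10.6 over all protein-coding genes with peaks at both places. The values elsewhere are maxima and were not adjusted for the number of peaks in a window.

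For 5 genes the strongest peak elsewhere had more fragments than the one at the 5′ end, by a ratio whose exact 95% interval lay above 1. That peak was picked by fold enrichment from 16 at Tgfbr2, 14 at Smad3, 14 at Smad7, 9 at Ski and 4 at Smad4. At the other genes it came from 4 at Tgfb1, 2 at Tgfbr1, 1 at Smad2 and 1 at Skil. The intervals do not allow for this choice, and a maximum rises with the number of peaks. The ratio was 8.66 at Smad3 (6.33 to 12.1), 8.32 at Smad7 (5.82 to 12.3), 5.94 at Ski (4.16 to 8.71), 3.71 at Tgfbr2 (2.54 to 5.56) and 3.21 at Smad4 (2.26 to 4.63). The other peak was itself near a start site at Smad7 and Smad4, 708 and 715 bp from that of a further transcript of the same gene, so that elsewhere does not mean distal there. Under the other peak the control was above its floor at Ski and Smad4, and as ratios of fold enrichment their values were 3.85 and 2.43. At Tgfb1 and Skil the 5′ end was the stronger, with ratios of 0.514 (0.382 to 0.688) and 0.500 (0.337 to 0.733). At Tgfbr1 (0.712, 0.468 to 1.08) and Smad2 (0.839, 0.478 to 1.46) the pair could not be told apart at this depth. Of the 5572 protein-coding genes with peaks at both places, 71.5% had the stronger one away from the 5′ end, beside 5 of the 9 here.

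**Figure D4:**
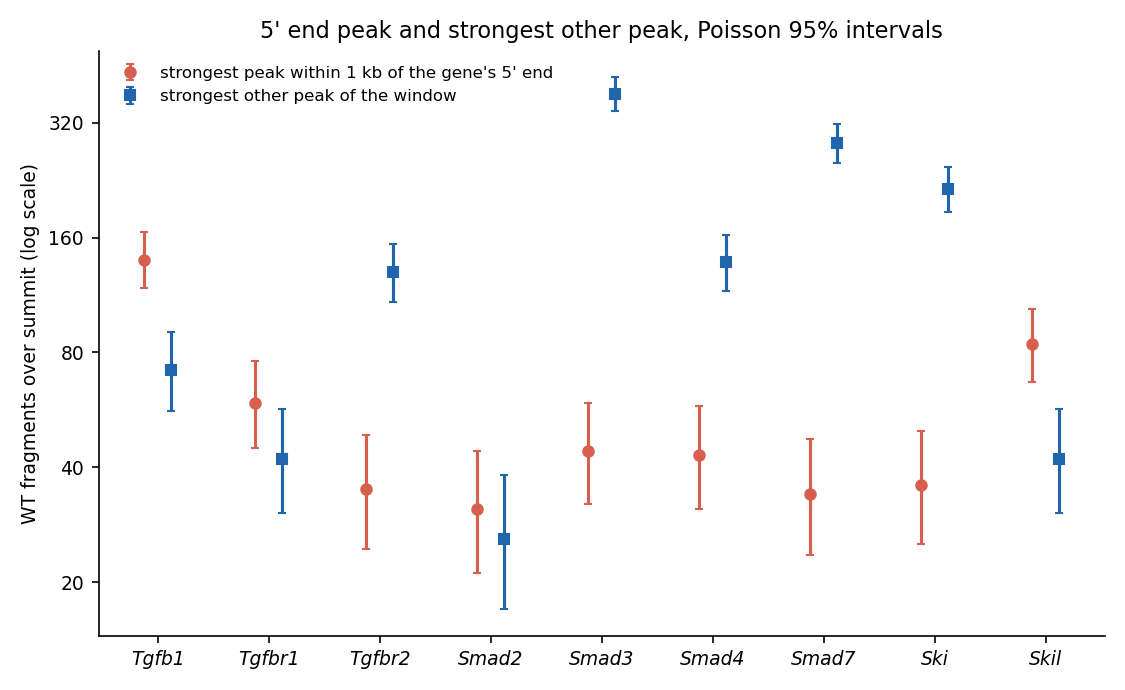
WT fragments over the summit (y axis, log scale) of the strongest peak within 1 kb of each gene's 5′ end (red circles) and of the strongest other peak of the window by fold enrichment (blue squares), with Poisson 95% intervals. The squares stand clear above the circles at Tgfbr2, Smad3, Smad4, Smad7 and Ski and below them at Tgfb1 and Skil.

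Of the 75 peaks, 20 (26.7%, Wilson 95% interval 18.0 to 37.6) lay within 1 kb of a start site of any gene, under the 39.6% of all high-confidence peaks. Gene bodies away from start sites held 33 (44%, 33.3 to 55.3), beside 33.0%, and intergenic DNA held 22 (29.3%, 20.2 to 40.4), beside 27.4%. Within the bodies of the 9 genes themselves stood 37 peaks, of which 36 were intronic and 25 in intron 1, as numbered in the longest protein-coding transcript. Intron 1 of Smad3 held 11 of these and that of Ski 7. Another high-confidence summit lay within 10 kb of 58 of the 75 (77.3%, 66.7 to 85.3), beside 49.1% of all high-confidence peaks. Such peaks numbered 16 of 18 at Tgfbr2, 14 of 15 at Smad7, 12 of 15 at Smad3, 8 of 10 at Ski, 5 of 5 at Smad4 and 3 of 5 at Tgfb1, and Tgfbr1, Smad2 and Skil had 0. Without Smad3, Smad7, Tgfbr2 and Ski, left out after the data were seen, the share was 47.1%, near the 49.1% of all high-confidence peaks.

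The Tcf/Lef core ATCAAAG, searched on both strands within 100 bp of the summit, was found at 5 of the 75 peaks (6.67%, 2.88 to 14.7), beside 10.2% of all high-confidence peaks and 3.31% of windows 2 kb to either side of them. The interval of the pooled share included both of these values, but promoter and distal peaks differed in direction. Of the 20 promoter peaks 3 held the core (15%, 5.24 to 36.0), namely those near Ccdc97 and 2610002J02Rik and the strongest of Smad7, beside 5.13% of all promoter peaks. Of the 55 distal peaks 2 held it (3.64%, 1.003 to 12.3), 1 at Tgfbr2 and 1 at Ski, beside 13.5% of all distal peaks and 3.64% of the windows flanking the 55. On counts of 3 and 2 peaks, the promoter background lay just under its interval (5.13 against 5.24%) and the distal one above its interval (13.5 against 12.3%). The intervals take peaks as independent, although many had a neighbour within 10 kb, so no departure from the background can be read from them. The ETS core CGGAAGT was found at 5 peaks (6.67%), beside 6.93%, and the Runx core TGTGGTT at 11 (14.7%), beside 15.5%. Split alike, the ETS core was at 1 promoter peak (5%, beside 13.3%) and 4 distal peaks (7.27%, 2.86 to 17.3, beside 2.75%). The Runx core was at 3 promoter peaks (15%, beside 6.10%) and 8 distal peaks (14.5%, beside 21.7%). Promoter and distal peaks thus differed in direction for all 3 cores. Of these ETS and Runx backgrounds only the distal ETS share lay outside its interval. Of the 75 windows, 2 held a pair of different cores, the Tgfb1 window near Ccdc97 and the strongest of Smad7, and the matches did not overlap. None of the 3 cores was present in 56 windows, among them the strongest of Smad3, Ski, Tgfb1, Tgfbr1, Smad2 and Skil. With the shorter core TCAAAG, which lies inside the longer one, 19 of the 75 (25.3%) and 26.4% of all high-confidence peaks held a match. In the windows printed above this shorter core recurs 11 bp from the summit of the strongest Tgfbr2 peak, on the minus strand.

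**Figure D5:**
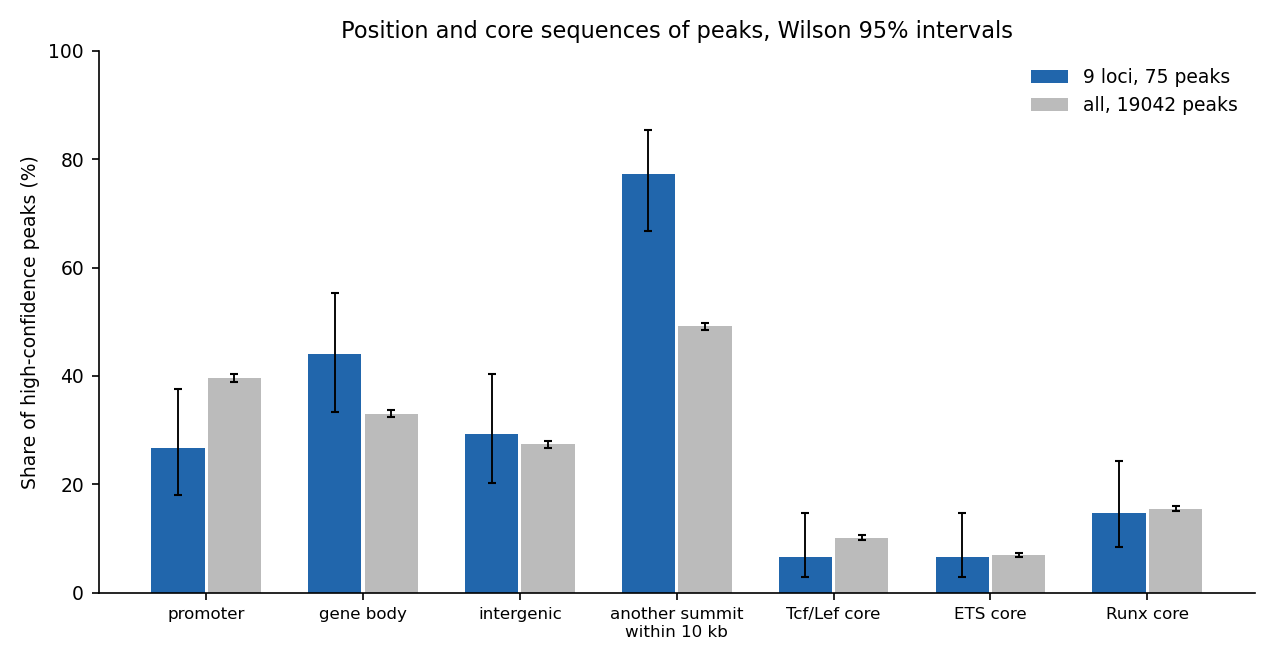
Share of high-confidence peaks in percent (y axis) that lay in promoters, gene bodies or intergenic DNA, that had another summit within 10 kb, or that held each core within 100 bp of the summit. Blue bars are the 75 peaks of the 9 loci, grey bars all 19042, and error bars are Wilson 95% intervals. The bars differ most for summits with a neighbour, 77.3 and 49.1%.

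Among 41 other genes of the pathway, comprising ligands, type I, II and III receptors, BMP-branch Smads, ubiquitin ligases, latency and activation factors and target genes, 36 (87.8%) held a high-confidence peak, beside the 66.5% of all protein-coding genes, with a median of 2 peaks per gene beside 1, and 114 peaks in all. When a peak counted only for the gene with the nearest protein-coding start site, 27 of the 41 kept one. The share of all protein-coding genes under that rule was not computed, and window length was not adjusted for. Among the 41, 17 (41.5%) had a peak in a promoter of their own, a share near the 32.8% of all protein-coding genes. The strongest was at Cdkn1a, a cell cycle inhibitor induced by TGF-beta, with 288 fragments and 45.0-fold enrichment 8.87 kb upstream. Tgfbr3, the accessory receptor betaglycan, followed with 299 fragments and 39.0-fold beyond its 3′ end. Smurf2, a ubiquitin ligase that Smad7 brings to the receptors, had 372 fragments and 36.0-fold, in a window with the Tcf/Lef core 41.1 kb upstream, where Kpna2 was the nearest gene. Furin, which cleaves the TGF-beta precursor, had 201 fragments and 31.5-fold 44.5 kb upstream. Peaks of 29.6-fold at Tgif2, a Smad corepressor, and of 26.5-fold at Eng, the accessory receptor endoglin, lay nearest to Sla2 and Sh2d3c. Of the other Smad genes, Smad5 had 9.12-fold enrichment in its intron 1, and Smad6, the other inhibitory Smad, had 1 peak of 6.70-fold 1.06 kb upstream. The strongest peaks in the windows of Smad1 (11.8-fold) and Smad9 (9.35-fold) lay at the start sites of Mmaa and Exosc8. The 5 genes with no high-confidence peak were Acvr1c, Bmpr1b, Ltbp1, Itgav and Cdkn2b.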

How the data were processed

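Tcf1 ChIP-seq had been performed on 1 WT and 1 Tcf1-deficient library. The authors aligned reads to mm9 with Bowtie2 2.2.5 after FastQC and called peaks with MACS2 2.1.1 (2.1.1.20160309 in the file header), per the submitters' processing notes. The header counts 46428124 WT and 36118114 control fragments before duplicate removal. The deposited pileup is a signal, a coverage in WT fragments at the summit. The deposited fold enrichment is a ratio with a pseudocount of 1. The deposited −log10 p-value and −log10 q-value are the peak caller's, compare these 2 libraries rather than genotypes, and served as limits only. The control level was computed back from pileup and fold enrichment. Per the header, scaling toward the smaller library was set and q left out, but the file holds q-values and whole-number pileups.

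Peaks were placed in the GENCODE vM1 annotation of NCBIM37 (mm9), and cores were searched in that genome. Gene tables of another build were not used, except for 1 older symbol, Lrrc33 for Nrros. All 9 genes were named, each with its strongest peak by fold enrichment, and of the 41 other genes those with the 6 largest fold enrichments and those without a peak. Smad family members and peaks named beyond these were chosen after their values were seen. The members and lists were chosen with earlier results of these data known. Sequences were printed for 4 of the 5 peaks with the Tcf/Lef core, for the strongest peak and, added after values were seen, for the strongest Tgfbr2 peak. The Smad7 window with the core is not shown here. Python 3.11.15, numpy 2.4.6, pandas 2.3.3, scipy 1.17.1 and matplotlib 3.10.9 were used, and the counting steps were tested on simulated data. Alternatives were other fold, q, window, promoter, neighbour and core limits.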

Additional observations from a re-analysis of the deposited data

How the results depend on the processing

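Of 62 recalculations of 8 results, 54 stayed within the 95% interval of the value or, for counts, within 1.5 times, and 8 moved further. Reversals were not scored. A fold minimum of 8 left 36 peaks at the 9 loci, raised the median fold enrichment to 13.3, raised the share with the Tcf/Lef core from 6.67 to 13.9%, within its wide interval, lowered the share with a neighbouring summit to 61.1% and left 5 genes with a promoter peak of their own. The same values over all high-confidence peaks and genes at that limit were not computed. Gene bodies alone held 37 peaks, at 7 of the 9 genes, and left 19 of the other pathway genes with a peak. The shorter core TCAAAG raised the core share to 25.3%. Without Smad3, Smad7, Tgfbr2 and Ski, an alternative chosen after seeing the data, the share with a neighbouring summit was 47.1%, a fall that leaving out the genes with the most peaks makes likely by itself. A fold minimum of 5 left 66 peaks and removed Smad2, and windows of 10 and 100 kb gave 51 and 96 peaks. No paired analysis was possible because each group had 1 library and the labels carry no replicate numbers. Depth limits the weak peaks most, since at 14 of the 75 the counting interval of the fold enrichment included the minimum of 4.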
